A study of Mus musculus with 12 samples.

Results

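The 10 genes of oxidative stress defence described here were measured in the mouse retina 2 days after optic nerve crush (ONC), a pinch of the optic nerve that injures the axons of retinal ganglion cells. They were chosen by symbol as NRF2 and its targets, glutathione genes and metallothioneins, and they are 10 of the 25655 genes in the deposited tables. The genes are Nfe2l2, Hmox1, Nqo1, Gclm, Gclc, Gpx4, Slc7a11, Txnrd1, Mt1 and Mt2. Whole retinas came from C57BL/6J mice aged 8 to 10 weeks, in which the left optic nerve was crushed and 1 intravitreal injection was given afterwards. The injection held PBS (the control), fluvastatin (a statin, which blocks HMG-CoA reductase), MBV (matrix-bound nanovesicles, here prepared from porcine urinary bladder), or fluvastatin with MBV. Each group had 3 samples, and all of them, PBS included, had the crush, so that no uninjured retina enters the comparisons. By their labels the groups differ in the injected agent. The labels also place PBS in another set of library numbers than fluvastatin and MBV, as described below. Counts that could be tied to a library by name were used for the PBS, fluvastatin and MBV groups, which gives 9 libraries, and the group given both agents was not analysed here.

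Cells meet electrophilic and oxidative stress with a programme run by the transcription factor NRF2, the product of Nfe2l2. In unstressed cells KEAP1 hands NRF2 to a CUL3 and RBX1 ubiquitin ligase, and when KEAP1 is modified NRF2 builds up, pairs with small MAF proteins and binds antioxidant response elements, for which BACH1 competes. Because NRF2 is controlled mainly at the protein level, its mRNA and its activity need not move together. Glutathione is made from cystine, taken up by the transporter that Slc7a11 encodes, and its first synthetic step is run by glutamate-cysteine ligase, the heterodimer of GCLC and GCLM. Metallothioneins bind zinc and copper and are induced through MTF1 at metal response elements. In the retina they and much of the glutathione supply are known from Muller glia.

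The promoters of the metallothionein pair are shown because Mt1 and Mt2 moved together from library to library, and that of Slc7a11 because it had the largest fold change against PBS among the members. RefSeq windows, taken from a table built on GRCm38.p6, run from 250 bases before to 50 bases after an annotated start, and 8 of the 10 members matched, while Hmox1 and Gclc did not. Each printed window matched GRCm39 exactly once on its chromosome, and the coordinates are those of that match. Capitals mark metal response element cores (TGCACNC or TGCGCNC, either strand) in Mt1 and Mt2, and amino acid response element cores (TGATGNAA, either strand) in Slc7a11.
Mt1 promoter, chr8:94905467-94905766, GRCm39, plus strand: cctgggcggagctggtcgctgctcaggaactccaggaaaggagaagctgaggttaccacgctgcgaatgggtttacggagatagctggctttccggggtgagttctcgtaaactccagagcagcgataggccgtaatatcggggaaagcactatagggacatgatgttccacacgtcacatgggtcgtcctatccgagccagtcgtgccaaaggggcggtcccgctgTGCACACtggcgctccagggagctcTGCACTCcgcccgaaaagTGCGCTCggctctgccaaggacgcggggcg
Mt2 promoter, chr8:94898996-94899295, GRCm39, plus strand: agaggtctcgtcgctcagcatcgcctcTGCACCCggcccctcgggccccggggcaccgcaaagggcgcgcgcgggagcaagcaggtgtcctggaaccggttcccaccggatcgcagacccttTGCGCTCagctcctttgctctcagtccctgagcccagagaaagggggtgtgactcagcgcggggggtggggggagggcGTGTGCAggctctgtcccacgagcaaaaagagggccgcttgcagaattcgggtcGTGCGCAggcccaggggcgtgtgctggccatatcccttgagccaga
Slc7a11 promoter, chr3:50398013-50398312, GRCm39, minus strand: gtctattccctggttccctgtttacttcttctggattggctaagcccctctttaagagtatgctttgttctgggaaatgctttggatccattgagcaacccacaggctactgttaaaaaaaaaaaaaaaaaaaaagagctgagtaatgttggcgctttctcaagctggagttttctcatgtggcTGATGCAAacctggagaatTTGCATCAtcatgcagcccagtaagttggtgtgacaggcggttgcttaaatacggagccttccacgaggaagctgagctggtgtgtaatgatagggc
The Mt1 window held 3 metal response element cores and the Mt2 window 4, and of 32851 RefSeq windows 25.7% held at least 1 and 1.97% at least 3. The 2 amino acid response element cores of Slc7a11 lay on opposite strands, and 0.07% of windows held 2 or more. The antioxidant response element core (TGACNNNGC, either strand) occurred once in the windows of Nfe2l2, Gclm and Mt2 and in 1 of the 3 windows of Txnrd1, against 12.4% of all windows. The Gclm window also held 3 metal response element cores, as many as that of Mt1, and 1 of them shared bases with its antioxidant response element core. No match to the antioxidant response element core lay in the windows of Nqo1, Slc7a11, Mt1 or Gpx4, which says nothing about sites outside them.

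Library depth, retinal identity and other tissue were checked first. Gene counts summed to 26325065 to 30992040 per PBS library, 23634662 to 27098889 per fluvastatin library and 21349516 to 26738043 per MBV library. Levels are given as CPM, counts scaled to a common library total, after TMM scaling, which corrects for library composition. Retinal ganglion cell markers (10 genes) summed to between 672.2 and 986.1 CPM and none was at 0 in any library. The 9 photoreceptor markers reported summed to 15342 to 16756 CPM with PBS, 14218 to 16768 with fluvastatin and 11888 to 16674 with MBV. Of these 1 rose and 1 fell with fluvastatin, and 3 fell with MBV, when 19.6% and 26.1% of all genes rose or fell. Lens markers (8 genes, crystallins among them) summed to 1.98 to 6.47 CPM with PBS, 2.88 to 21.5 with fluvastatin and 60.8 to 159.8 with MBV. Monocyte and macrophage markers (12 genes) summed to 101.5 CPM in MBV replicate 3, against 15.7 to 37.1 in the other 8 libraries. Pigment epithelium and melanocyte markers (10 genes) summed to 152.4 to 182.7 CPM with PBS, 101.3 to 151.1 with fluvastatin and 75.8 to 160.9 with MBV, and Muller glia and astrocyte markers (10 genes) to 3281 to 3875, 1948 to 3152 and 1794 to 3097 CPM. Sums rest most on the abundant genes. Against PBS, 3 Muller glia and astrocyte markers were higher and 7 lower with fluvastatin (median log2 fold change -0.16). With MBV 5 were higher and 5 lower (median -0.0084). Of the pigment epithelium and melanocyte markers 4 were higher and 6 lower in both comparisons. The part of these tissues in the results was not tested. In whole retina fewer cells of a type cannot be told apart from less RNA per cell.

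**Figure D1:**
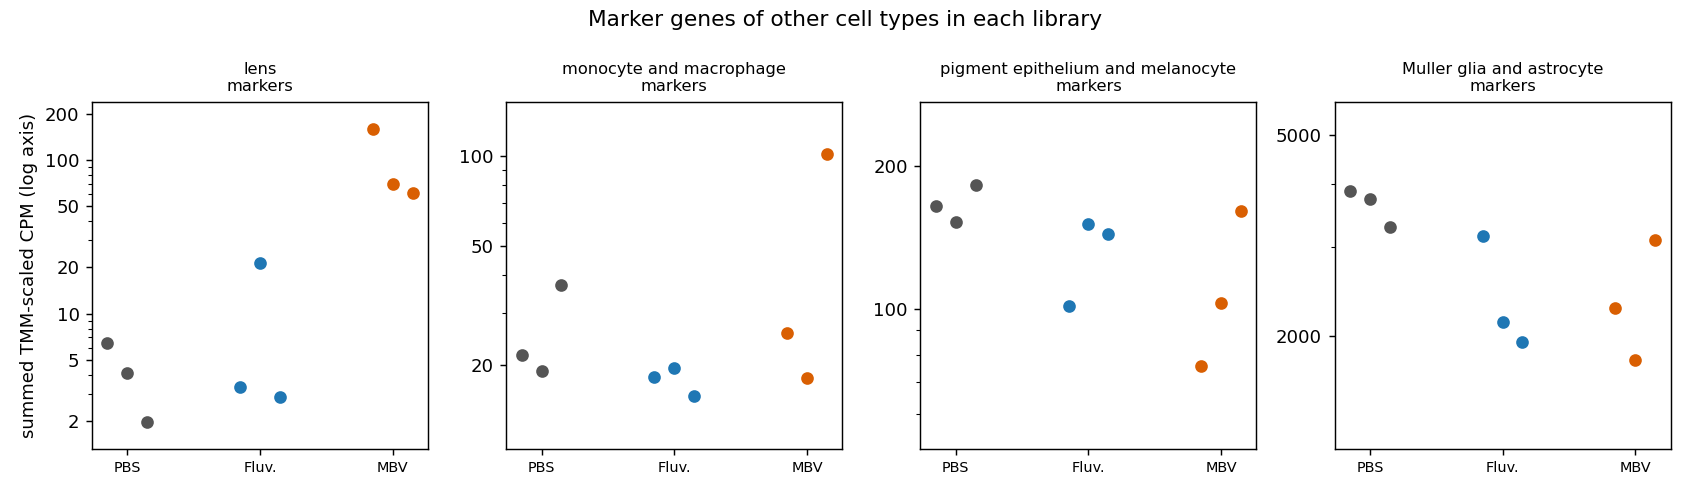
Summed TMM-scaled CPM (log axis) of 4 marker lists in each library, with points for PBS, fluvastatin and MBV replicates 1, 2 and 3 from left to right. Lens markers were at 60.8 CPM or more in the MBV libraries and at 21.5 or less elsewhere, and monocyte and macrophage markers stood at 101.5 CPM in MBV replicate 3.

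The labels number the libraries in 2 sets, with PBS in one set and fluvastatin and MBV in the other. Fluvastatin and MBV were each compared with PBS across the sets, so that set and treatment cannot be told apart there, and both comparisons share the PBS libraries. MBV was compared with fluvastatin within 1 set. Nothing in the labels says whether replicates were separate animals, and p-values then measure only the spread between these samples.

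Per kilobase of exon, Gpx4 was the most abundant of the 10 genes in the PBS retinas, at 114 ± 7.57 CPM per kb (SD, n = 3). GPX4 is the enzyme that reduces lipid hydroperoxides and holds back ferroptosis. Mt1 followed at 27.65 ± 6.997 and Mt2 at 18.2 ± 6.135 CPM per kb, with overlapping ranges. Txnrd1, Gclc and Gclm lay at 6.38 ± 0.431, 6.22 ± 0.1845 and 6.08 ± 0.46 CPM per kb and did not differ beyond their spread. Nfe2l2 was at 4.95 ± 0.128 and Hmox1 at 3.88 ± 0.869 CPM per kb, again with overlapping ranges. Slc7a11 at 2.38 ± 0.587 and Nqo1 at 0.909 ± 0.0932 CPM per kb were the lowest, and each stood clear of its neighbours. The order was the same with fluvastatin. With MBV, Hmox1 was at 5.46 ± 0.94 CPM per kb, next below Txnrd1 and above Nfe2l2, Gclm and Gclc, with ranges that overlapped all of these. Exon length here is the union over annotated transcripts, 15522 bases for Slc7a11, whose level per kb is therefore low for transcripts that use few of these exons.

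**Figure D2:**
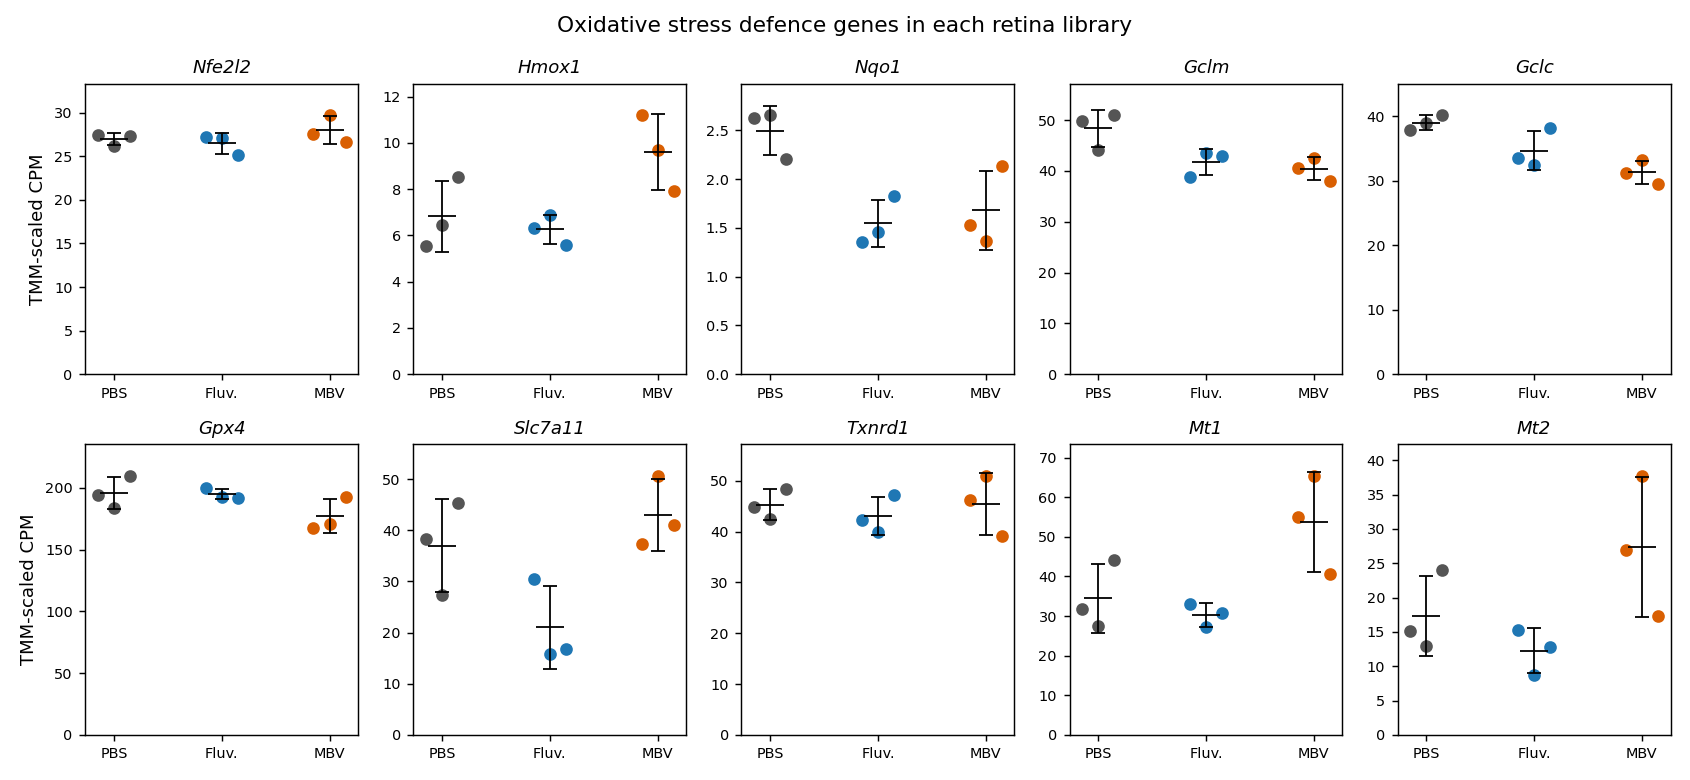
TMM-scaled CPM of each gene in each library, one panel per gene with its own axis from 0; points are replicates 1, 2 and 3 from left to right, and bars show the mean and SD of 3 libraries. Nqo1 and Gclm were lower in the fluvastatin and MBV libraries than in every PBS library, and Hmox1, Slc7a11, Mt1 and Mt2 were higher in every MBV library than in any fluvastatin library.

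Nfe2l2 (chr2:75505857-75534985, GRCm39, minus strand) was the steadiest of the 10. PBS libraries had 27.5, 26.2 and 27.4 CPM, against 27.2, 27.1 and 25.15 with fluvastatin and 27.5, 29.8 and 26.65 with MBV. The groups overlapped throughout. Its log2 fold change was -0.03 with fluvastatin (95% interval -0.16 to 0.10) and 0.04 with MBV (-0.10 to 0.17), at adjusted p of 0.769 and 0.665 by edgeR.

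Hmox1 (chr8:75820249-75827217, plus strand) encodes haem oxygenase, which breaks down haem and is a classical target shared by NRF2 and BACH1. It stood at 5.52, 6.45 and 8.51 CPM with PBS, at 6.30, 6.88 and 5.60 with fluvastatin and at 11.2, 9.68 and 7.91 with MBV. Every MBV library was above every fluvastatin library, while MBV replicate 3 lay below PBS replicate 3. Against PBS the log2 fold change was 0.49 ± 0.18 (SE) with MBV, at an adjusted p of 0.0693, and -0.12 ± 0.16 with fluvastatin, at 0.638. Here and below, adjusted p is the Benjamini-Hochberg value, over all genes tested, of the quasi-likelihood test in edgeR, and a gene is said to have risen or fallen where it is under 0.05. By DESeq2 the MBV difference from PBS had an adjusted p of 0.0462, and by edgeR without MBV replicate 3, the library rich in monocyte and macrophage markers, 0.0115. It passed in 2 of the 6 edgeR fits that left out 1 library, with adjusted p up to 0.231. In a single edgeR fit of the 9 libraries the adjusted p was 0.0466, and with a replicate block 0.141.

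Nqo1 (chr8:108114857-108129838, minus strand) encodes the quinone reductase that is often read as a marker of NRF2 activity. It was the scarcest member, at 2.63, 2.66 and 2.20 CPM with PBS, 1.36, 1.46 and 1.82 with fluvastatin and 1.535, 1.37 and 2.14 with MBV. All fluvastatin and all MBV libraries were below all PBS libraries. Nqo1 fell 1.62-fold with fluvastatin, a log2 fold change of -0.70 ± 0.20 at an adjusted p of 0.0325. With MBV the log2 fold change was -0.58 ± 0.22, at an adjusted p of 0.0817. The mean count was 72.3 reads per PBS library and 38.3 per fluvastatin library. The fluvastatin call was lost without PBS replicate 1, PBS replicate 2, fluvastatin replicate 1 or fluvastatin replicate 2, at adjusted p of 0.119, 0.0958, 0.0621 and 0.1, and by DESeq2, at 0.0654.

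Gclm (chr3:122039206-122064381, plus strand) and Gclc (chr9:77661817-77701767, plus strand) encode the modifier and catalytic subunits of glutamate-cysteine ligase. Gclm was at 49.85, 44.2 and 51.1 CPM with PBS, 38.8, 43.5 and 43.0 with fluvastatin and 40.6, 42.5 and 38.0 with MBV. Gclc was at 37.9, 38.9 and 40.2 CPM with PBS, 33.5, 32.3 and 38.1 with fluvastatin and 31.2, 33.1 and 29.4 with MBV. Gclm was below the PBS range in all 6 treated libraries, as was Gclc in all but fluvastatin replicate 3. Both subunits fell with MBV, Gclm 1.205-fold (log2 fold change -0.27 ± 0.07, adjusted p 0.0181) and Gclc 1.26-fold (-0.33 ± 0.06, adjusted p 0.00414). The Gclc call was kept under all 12 alternatives tried. The Gclm call was lost without PBS replicate 1, PBS replicate 3 or MBV replicate 1, at adjusted p of 0.0774, 0.0579 and 0.0549. With fluvastatin the log2 fold changes were -0.21 ± 0.07 for Gclm, at an adjusted p of 0.052, and -0.17 ± 0.07 for Gclc, at 0.103. The ratio of Gclm to Gclc was between 1.13 and 1.345 in the 9 libraries.

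Slc7a11 (chr3:49846975-50398063, minus strand) encodes the light chain of the cystine and glutamate exchanger xCT, which feeds glutathione synthesis and is a target of both NRF2 and ATF4. It was at 38.25, 27.3 and 45.3 CPM with PBS, at 30.4, 15.9 and 16.7 with fluvastatin and at 37.2, 50.7 and 41.0 with MBV. Fluvastatin replicates 2 and 3 were the lowest of the 9 libraries, and fluvastatin replicate 1 lay within the PBS range. Slc7a11 fell 1.76-fold with fluvastatin, a log2 fold change of -0.81 ± 0.24 at an adjusted p of 0.0359. This call was lost without PBS replicate 1, PBS replicate 3, fluvastatin replicate 2 or fluvastatin replicate 3, at adjusted p of 0.105, 0.102, 0.155 and 0.122, and by DESeq2, at 0.108. With MBV the log2 fold change was 0.21 (95% interval -0.17 to 0.59). The overlapping same-strand model Gm37498 had no counts.

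Gpx4 (chr10:79883000-79892273, plus strand) and Txnrd1 (chr10:82669785-82733546, plus strand), the cytosolic thioredoxin reductase, passed no threshold. Gpx4 was at 194, 184 and 209.9 CPM with PBS, 199.6, 192.9 and 191.9 with fluvastatin and 167.4, 170.4 and 192.7 with MBV. Txnrd1 was at 44.9, 42.4 and 48.4 CPM with PBS, 42.2, 39.8 and 47.1 with fluvastatin and 46.2, 51.0 and 39.05 with MBV. For Gpx4 the log2 fold change was -0.01 with fluvastatin (95% interval -0.12 to 0.10) and -0.16 with MBV (-0.30 to -0.01, adjusted p 0.108). For Txnrd1 it was -0.07 with fluvastatin (-0.23 to 0.09) and -0.0028 with MBV (-0.21 to 0.21). Eid3, which overlaps Txnrd1 on the same strand, averaged 43.7 counts per library.

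Mt1 (chr8:94905710-94906955, plus strand) and Mt2 (chr8:94899292-94900196, plus strand) are neighbours and encode the metallothioneins that are widely induced by zinc, glucocorticoid and inflammatory signals. Mt1 was at 31.7, 27.5 and 44.2 CPM with PBS, 33.2, 27.2 and 30.7 with fluvastatin and 55.1, 65.5 and 40.5 with MBV. Mt2 was at 15.1, 12.9 and 23.9 CPM with PBS, 15.3, 8.71 and 12.8 with fluvastatin and 26.9, 37.8 and 17.3 with MBV. Both genes were highest in MBV replicates 1 and 2, and for both PBS replicate 3 lay above MBV replicate 3. Reactive glia genes (10 genes) summed to 843 CPM in PBS replicate 3, against 501.6 and 452.1 in PBS replicates 1 and 2, to 737.7, 846.1 and 631.9 CPM in MBV replicates 1, 2 and 3 and to 469.4 to 628.2 with fluvastatin. Their part in the metallothionein levels was not tested. Mt1 rose 1.55-fold with MBV, a log2 fold change of 0.63 ± 0.19 at an adjusted p of 0.0396. Mt2 had a log2 fold change of 0.65 ± 0.28 with MBV, at an adjusted p of 0.123. With fluvastatin the log2 fold changes were -0.18 ± 0.15 for Mt1, at an adjusted p of 0.435, and -0.50 ± 0.23 for Mt2, at 0.172. The Mt1 call with MBV was lost without PBS replicate 1, PBS replicate 2, MBV replicate 1 or MBV replicate 2, at adjusted p of 0.131, 0.128, 0.111 and 0.115, and by DESeq2, at 0.0733. The ratio of Mt1 to Mt2 was between 1.73 and 3.12 in the 9 libraries, with the highest value in fluvastatin replicate 2, where Mt2 was lowest. The 2 genes share much of their sequence, and how reads that fit both were counted is not given in the sources used here.

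**Figure D3:**
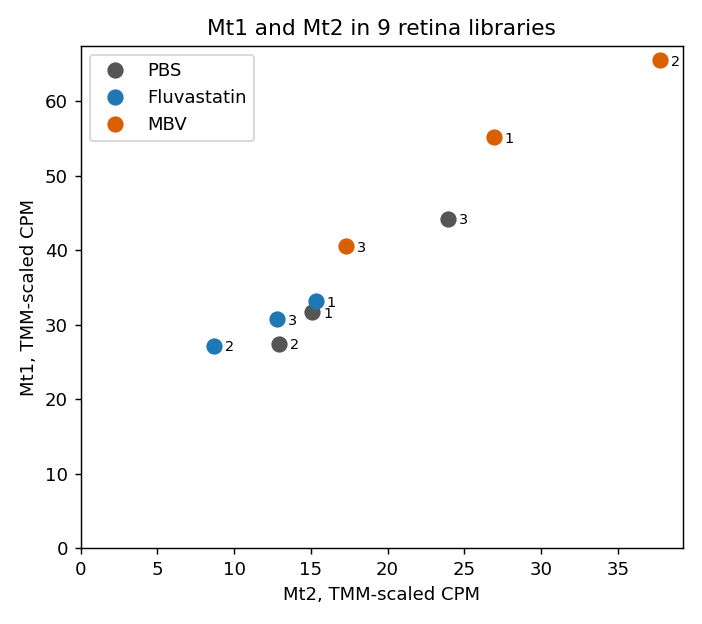
Mt1 (vertical axis) against Mt2 (horizontal axis) in TMM-scaled CPM, 1 point per library, coloured by group and numbered by replicate. The libraries lie along a line from fluvastatin replicate 2 (Mt1 27.2, Mt2 8.71) to MBV replicate 2 (Mt1 65.5, Mt2 37.8), with PBS replicate 3 among the MBV libraries.

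Counted over the set, 0 of the 10 genes rose and 2 fell with fluvastatin, when 9.36% of the 18818 genes tested rose and 10.2% fell. At an unadjusted p under 0.05 there were 4 members, when 32.5% of genes had such a p. By DESeq2 the count past the adjusted threshold was 0, when 18.8% of genes were called. All 10 log2 fold changes were below 0, with a median of -0.18 against -0.0072 over all genes. Lower in every fluvastatin library than in any PBS library were 2 members (Nqo1 and Gclm), and higher in every one were 0, when 19.3% and 17.3% of genes did so. With MBV 1 gene rose and 2 fell, when 12% of the 18897 genes tested rose and 14.1% fell. In that comparison 7 members had an unadjusted p under 0.05, when 37.8% of genes had such a p. The log2 fold changes with MBV were split, 5 above and 5 below 0, with a median of 0.02 against 0.0095 over all genes. Lower in every MBV library than in any PBS library were 3 members (Nqo1, Gclm and Gclc) and higher were 0, when 21% and 20.3% of genes did so. Without MBV replicate 3 the MBV comparison called 7 members, adding Nqo1 and Gpx4 as lower and Hmox1 and Mt2 as higher, when 30.1% of all genes were called, against 26.1% with that library. In the MBV comparison 7 of 8 lens markers rose too, and their part in the members' differences was not tested.

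**Figure D4:**
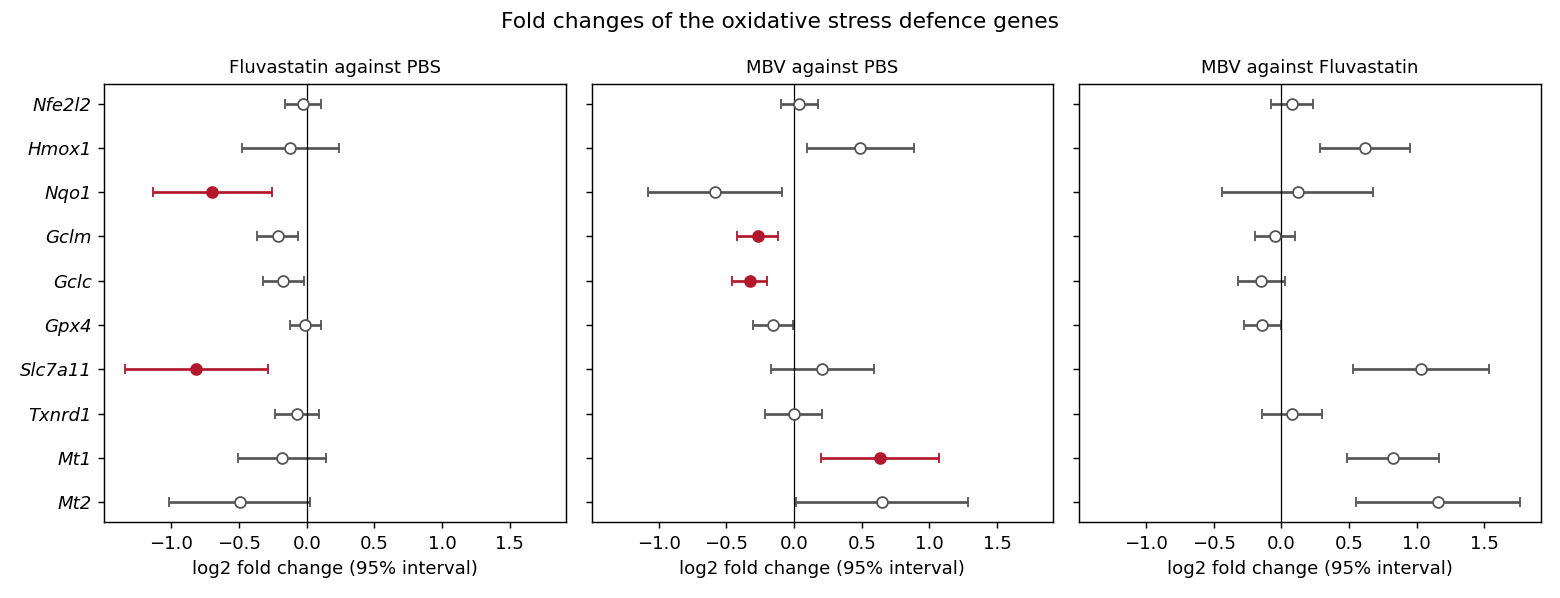
Log2 fold change of each gene (horizontal axis) in the 3 comparisons, with 95% intervals from edgeR; filled red points have an adjusted p under 0.05. With fluvastatin all 10 points lie below 0, with MBV 5 lie on each side, and between MBV and fluvastatin no point passed although 5 intervals leave out 0.

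MBV compared with fluvastatin, both in 1 library set, put Hmox1, Slc7a11, Mt1 and Mt2 apart. In each of these 4 genes all 3 MBV libraries were above all 3 fluvastatin libraries, and no member was lower in all of them, when 8.53% of the 18721 genes tested were separated upward and 7.88% downward. The difference was largest for Mt2, 27.3 ± 10.2 CPM with MBV against 12.3 ± 3.34 with fluvastatin (SD, n = 3), a log2 fold change of 1.16 ± 0.27. For Slc7a11 the means were 43.0 ± 6.95 and 21.01 ± 8.18 CPM, with a log2 fold change of 1.03 ± 0.22. For Mt1 it was 0.82 ± 0.15 and for Hmox1 0.62 ± 0.15. None of the 4 passed the threshold after adjustment in edgeR, with adjusted p of 0.222 for Mt2, 0.186 for Slc7a11, 0.1345 for Mt1 and 0.237 for Hmox1. In this comparison edgeR called 0.0267% of all genes higher and 0.032% lower, and 0 members, whereas at an unadjusted p under 0.05 there were 5 members (10.7% of all genes) and DESeq2 called 1 (0.673% of all genes), Mt1, at an adjusted p of 5.33e-05. Without MBV replicate 3, edgeR called Mt1, Mt2 and Hmox1, at adjusted p of 0.00182, 0.0104 and 0.035, when 1.06% of all genes were called. Without fluvastatin replicate 1 it called Slc7a11, at 0.0121, when 0.118% of all genes were called. Each of these 4 was called in 1 of the 6 fits that left out 1 library. Their adjusted p reached 0.525 for Mt1, 0.607 for Mt2, 0.611 for Hmox1 and 0.586 for Slc7a11. Nfe2l2, Nqo1, Gclm and Txnrd1 differed by 0.12 or less on the log2 scale, and the interval for Nqo1 was wide (-0.44 to 0.68). Gclc had a log2 fold change of -0.15 (-0.32 to 0.03) and Gpx4 of -0.14 (-0.27 to -0.01, adjusted p 0.452).

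Around these genes, the partners that control NRF2 moved in part. Of 10 genes in this list 3 rose and 2 fell with fluvastatin, and 2 rose and 2 fell with MBV, with median log2 fold changes of 0.09 and 0.06. The shares over all genes were 9.36% and 10.2% with fluvastatin, and 12% and 14.1% with MBV. Mafg, a small MAF partner of NRF2, rose with both (0.33 ± 0.04 with fluvastatin, 0.36 ± 0.05 with MBV), from 78.0 CPM in PBS to 98.25 and 100.8. Maff rose with both (0.76 ± 0.22 and 1.31 ± 0.39) from a low 1.725 CPM. The Maff call was kept in 2 of 6 fits that left out 1 library with fluvastatin (adjusted p up to 0.119) and in 1 of 6 with MBV (up to 0.115, log2 fold change 0.81 without MBV replicate 2). Bach2 rose with fluvastatin (0.39 ± 0.07). The ligase genes Cul3 and Rbx1 fell with fluvastatin (-0.15 ± 0.04 and -0.29 ± 0.05) and with MBV (-0.19 ± 0.04 and -0.39 ± 0.05). The Cul3 call with fluvastatin was lost without PBS replicate 1 or fluvastatin replicate 2, at adjusted p of 0.113 and 0.0699. Keap1, the sensor, was at 0.05 ± 0.05 and -0.04 ± 0.06 on the log2 scale, with adjusted p of 0.557 and 0.67, and Bach1 at -0.11 ± 0.07 and 0.005 ± 0.06, with adjusted p of 0.324 and 0.956.

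Other genes often listed as NRF2 targets passed the threshold as lower alone. Of 20, 6 fell and 0 rose with fluvastatin, and 5 fell and 0 rose with MBV, with median log2 fold changes of -0.13 in both. Among all genes 10.2% fell and 9.36% rose with fluvastatin, and 14.1% fell and 12% rose with MBV. At an unadjusted p under 0.05 there were 8 and 7 of the 20, when 32.5% and 37.8% of all genes had such a p. Leaving out 1 library gave 4 (without PBS replicate 1) to 7 called with fluvastatin and 3 (without PBS replicate 1) to 9 (without MBV replicate 3) with MBV. In such fits 9.26% (without PBS replicate 1) to 23.5% (without fluvastatin replicate 1) of all genes were called with fluvastatin. The shares with MBV were 14.5% (without PBS replicate 1) to 30.1% (without MBV replicate 3). Me1, which makes NADPH, fell from 196.5 CPM with PBS to 138.1 with fluvastatin and 136 with MBV (-0.51 ± 0.05 and -0.54 ± 0.07). The peroxidase Prdx1 fell by 0.49 ± 0.07 and 0.57 ± 0.06 on the log2 scale, and the glutathione transferase Gsta4 by 0.57 ± 0.08 and 0.42 ± 0.11. The Gsta4 call with MBV was lost without PBS replicate 1, PBS replicate 3, MBV replicate 1 or MBV replicate 2, at adjusted p of 0.077, 0.0635, 0.0855 and 0.0651. Ugdh, which supplies glucuronic acid for conjugation, fell by 0.23 ± 0.05 and 0.41 ± 0.06, the first of which reached an adjusted p of 0.0502 without PBS replicate 1.

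Glutathione and peroxide enzymes passed mostly as lower. Of 15 genes of glutathione synthesis and use, 3 fell and 0 rose with fluvastatin, and 3 fell and 1 rose with MBV. Over all genes tested 10.2% fell and 9.36% rose with fluvastatin, and 14.1% fell and 12% rose with MBV. Leaving out 1 library gave 2 (without PBS replicate 1) to 4 called with fluvastatin and 2 (without PBS replicate 1) to 7 (without MBV replicate 3) with MBV. For this list and the superoxide and peroxide list below, 9.26% (without PBS replicate 1) to 23.5% of all genes were called in such fits with fluvastatin. The shares with MBV were 14.5% (without PBS replicate 1) to 30.1% (without MBV replicate 3). Gsto1 fell from 17.8 CPM to 10.3 and 10.9, and the microsomal transferase Mgst1 from 9.33 to 3.59 and 4.33, although with MBV its call was lost without PBS replicate 3 or MBV replicate 1, at adjusted p of 0.0644 and 0.0727. Chac1, a glutathione-degrading enzyme and ATF4 target, was the 1 that rose with MBV, from 14.0 to 18.9 CPM (0.42 ± 0.11), a call lost without PBS replicate 1 or PBS replicate 2, at adjusted p of 0.0599 and 0.0727. Gpx3, the secreted peroxidase, fell with MBV from 135.4 to 16.7 CPM (-3.04 ± 0.73), with MBV libraries between 3.25 and 42.6 CPM. Its log2 fold change was -5.18 without MBV replicate 3, and the call was lost without PBS replicate 1, at an adjusted p of 0.0534. With fluvastatin Gpx3 also had a lower mean, 26.1 CPM, with libraries between 3.59 and 70.0 CPM, and did not pass. Of 15 genes of superoxide and peroxide removal, 4 fell with fluvastatin and 6 with MBV, and 0 rose in either. An unadjusted p under 0.05 was found for 8 and 10 of them, when 32.5% and 37.8% of all genes had such a p. Leaving out 1 library gave 2 (without PBS replicate 1) to 5 called with fluvastatin and 4 (without PBS replicate 1) to 7 with MBV. Prdx6 (-0.65 ± 0.10 and -0.70 ± 0.13) and Prdx3 (-0.36 ± 0.09 and -0.47 ± 0.05) fell in both, as did Prdx5 (-0.20 ± 0.06 and -0.46 ± 0.05). With fluvastatin the Prdx5 call was kept in 1 of 6 fits that left out 1 library, that without fluvastatin replicate 2, with adjusted p up to 0.128, and the Prdx3 call was lost without PBS replicate 1, PBS replicate 3 or fluvastatin replicate 2, at 0.0844, 0.0548 and 0.0761. Selenop fell with fluvastatin (-0.55 ± 0.09) and had a log2 fold change of -0.50 ± 0.19 with MBV, at an adjusted p of 0.0797. The extracellular dismutase Sod3 fell with MBV (-1.97 ± 0.45), at -2.99 without MBV replicate 3. Its mean was 9.98 CPM with PBS, 2.59 with MBV and 3.67 with fluvastatin. The fluvastatin libraries lay between 0.933 and 9.10 CPM, and Sod3 did not pass there. In the same comparisons 5 of 10 pigment epithelium and melanocyte markers fell, among them Pmel (-2.01 ± 0.13 and -2.44 ± 0.19) and Dct (-1.67 ± 0.16 and -1.73 ± 0.18), while in the same list Ttr and Rgr, named here after their values were seen, rose with fluvastatin (1.15 ± 0.24 and 1.05 ± 0.23) and Ttr with MBV (0.87 ± 0.23). In addition 5 of 10 Muller glia and astrocyte markers fell with fluvastatin and 2 with MBV. Their part in the falls of the peroxide and glutathione enzymes was not tested.

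Among 15 genes of iron, haem and ferroptosis 1 rose and 1 fell with fluvastatin, and 3 rose and 3 fell with MBV. For this list and the metal response list below, the shares over all genes were 9.36% risen and 10.2% fallen with fluvastatin. With MBV they were 12% and 14.1%. Leaving out 1 library gave 1 to 4 (without fluvastatin replicate 1) called with fluvastatin and 3 (without PBS replicate 1) to 6 with MBV. In such fits 9.26% (without PBS replicate 1) to 23.5% (without fluvastatin replicate 1) of all genes were called with fluvastatin, and 11.3% without fluvastatin replicate 2. The shares with MBV were 14.5% (without PBS replicate 1) to 30.1% (without MBV replicate 3). Tfrc, the transferrin receptor, fell from 201.4 CPM with PBS to 119.8 with fluvastatin and 110.8 with MBV (-0.75 ± 0.05 and -0.87 ± 0.05), and transferrin itself (Trf) rose (0.73 ± 0.17 and 0.60 ± 0.13). The Trf call with fluvastatin was lost without PBS replicate 1, fluvastatin replicate 2 or fluvastatin replicate 3, at adjusted p of 0.0614, 0.0629 and 0.0524. Acsl4, which loads membranes with the lipids that peroxidise in ferroptosis, fell with MBV (-0.32 ± 0.06), and the ferrireductase Steap3 rose (0.49 ± 0.12, with an adjusted p of 0.0666 without PBS replicate 1). Of the 7 metal response genes tested (of 8 listed), 2 rose and 1 fell with fluvastatin, and 3 rose and 1 fell with MBV, and leaving out 1 library gave 0 (without fluvastatin replicate 2) to 3 and 3 to 4 called. The metal sensor Mtf1 rose with MBV (0.29 ± 0.06) and had a log2 fold change of 0.17 ± 0.07 with fluvastatin, at an adjusted p of 0.104. Slc30a1, a zinc exporter that MTF1 also induces, fell in both (-0.25 ± 0.06 and -0.20 ± 0.05), and the zinc importer Slc39a14 (0.22 ± 0.07 and 0.41 ± 0.07) and the exporter Slc30a10 (0.60 ± 0.18 and 0.59 ± 0.12) rose in both. With fluvastatin the calls of Slc39a14 and Slc30a10 were each kept in 1 of 6 fits that left out 1 library, that without fluvastatin replicate 1, with adjusted p up to 0.152 and 0.163. The Slc30a1 call was lost without fluvastatin replicate 2 with fluvastatin, at 0.0508, and without PBS replicate 2, PBS replicate 3 or MBV replicate 2 with MBV, at 0.0741, 0.0653 and 0.0653. Mt3, the brain metallothionein, had values of 0.17 ± 0.11 and 0.08 ± 0.14. Of 10 NADPH oxidase genes 0 passed by edgeR in either comparison with PBS, with 1 in each at an unadjusted p under 0.05. The count with MBV was 2 without MBV replicate 2, 1 without PBS replicate 3 and 1 without MBV replicate 3. Between MBV and fluvastatin 0 genes of these 7 lists passed by edgeR with all libraries. In the iron, haem and ferroptosis list 1 gene passed without fluvastatin replicate 1 and 1 without MBV replicate 3. Those fits called 0.118% and 1.06% of all genes.

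**Figure D5:**
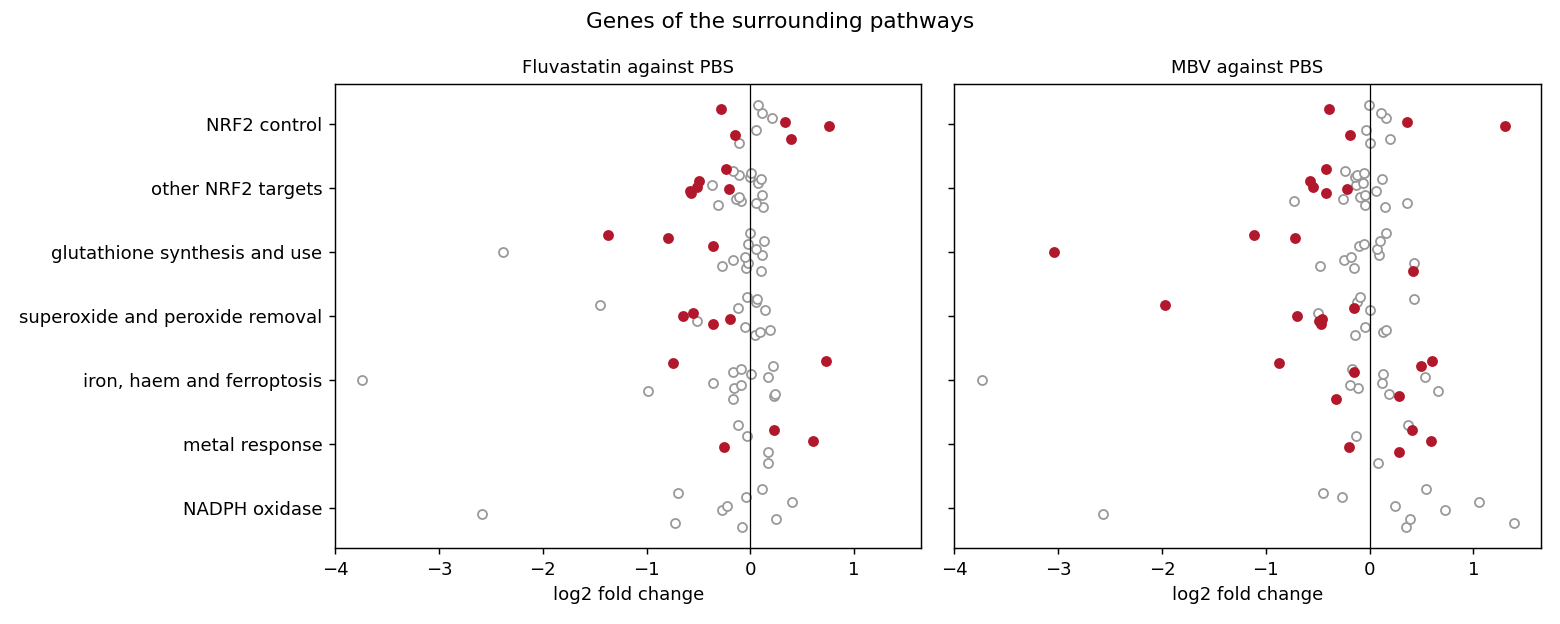
Log2 fold change of each gene (points) in 7 lists around the set, for fluvastatin and MBV against PBS; filled red points have an adjusted p under 0.05 by edgeR, and points are spread vertically within a list by name. The other NRF2 targets and the superoxide and peroxide genes have filled points to the left of 0 alone.

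Genes whose level was most like that of a member over the 9 libraries were sought among 15056 genes averaging at least 10 counts, by Pearson's r of log2(CPM + 0.5). Closest to Mt2 were Mt1, at 0.963, and Cxadr, Rab3ip, Fam118b and Olfr689, at 0.952 to 0.953. Closest to Hmox1 were Cemip2 at 0.95, Il17ra at 0.936, Tmem179b at 0.929, and Nectin4 and Golm1 at 0.925. Leaving aside Mt1 and Olfr689, which spanned 1.25 and 0.89 log2 units over the libraries, the log2 levels of these genes spanned 0.297 to 0.577. The points share libraries, depth and treatment groups, and no p is given.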

How the data were processed

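Total RNA from whole retinas was sequenced by the authors as 75 base paired reads (TruSeq Total RNA kit, NextSeq500) and counted on GRCm39 in CLC Genomics Grid Workbench. The strand and multiple-mapping settings are not given in the sources used here. The deposited values are raw counts per gene in 4 tables of 25655 genes. In the table of the combined treatment 6 count columns carried no library name and were used in no step, so that comparisons with that group are not analysed here. The fold changes, p-values and group means of the authors' own comparisons were not used.

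Genes with a count in at least 1 library of the 2 groups compared were tested with edgeR 4.0.16 (TMM, glmQLFit, glmQLFTest) in R 4.3.3, with Benjamini-Hochberg adjustment over all genes tested and a threshold of 0.05, and no covariates. Alternatives were DESeq2 1.42.0, other scalings, a filter of more than 10 counts in 2 libraries of a group, 1 fit of the 9 libraries, leaving out each library, and a replicate block. Reads carry no molecular identifiers, so copies of one molecule cannot be told apart. Exon lengths came from GENCODE, in which 25493 gene IDs matched. The members and lists were chosen with earlier results of these data known. Named from each other list were up to 4 genes past the threshold in order of adjusted p, with Keap1, Bach1, Mt3, Mtf1 and Slc30a1 whatever their values, and the 5 genes most like Hmox1 and Mt2. Of the photoreceptor markers 1 is not reported here.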

Additional observations from a re-analysis of the deposited data

How the results depend on the processing

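Scaling by DESeq2's size factors or by library totals, the stricter filter and the single fit of 9 libraries kept the count of members past the threshold within 1.5 times its value. DESeq2 called 0 members with fluvastatin (2 by edgeR) and 1 between MBV and fluvastatin (0 by edgeR). The share of all genes that DESeq2 called was 18.8% with fluvastatin (19.6% by edgeR) and 0.673% between MBV and fluvastatin (0.0588% by edgeR). Leaving out 1 library gave 0 to 2 members with fluvastatin, 1 to 7 with MBV and 0 to 3 between MBV and fluvastatin, while the calls over all genes were 1726 to 4402, 2711 to 5664 and 0 to 197. With a replicate block the counts were 2, 1 and 0, and without it 2, 3 and 0. Deviations of same-numbered samples from their group means correlated at r from -0.366 to 0.159. With 3 samples per group these values cannot settle whether the numbers pair the samples. The block lost Nqo1 (adjusted p 0.0505) and gained Mt2 (0.0432) with fluvastatin, and lost Gclm (0.0544) and Mt1 (0.106) with MBV. The cause of these changes was not tested. Direction turned only in members that were not called. For Txnrd1 with MBV against PBS the log2 fold change became 0.0042 with DESeq2 and with its size factors, 0.032 with library totals, 0.004 with the stricter filter and 0.0066 in the single fit, and leaving out 1 library gave -0.091 (MBV replicate 2) to 0.0931 (MBV replicate 3), also above 0 without PBS replicate 3 (0.0457). Leaving out 1 library gave -0.0056 (MBV replicate 2) to 0.0712 for Nfe2l2 in that comparison. With fluvastatin against PBS it gave -0.2526 to 0.0697 for Hmox1, -0.0518 to 0.0461 for Gpx4 and -0.3203 to 0.039 for Mt1, each above 0 without PBS replicate 3, and -0.0498 to 0.0065 for Nfe2l2. Nfe2l2 and, at 9e-04, Gpx4 were above 0 without fluvastatin replicate 3. Between MBV and fluvastatin it gave -0.0116 (MBV replicate 2) to 0.1756 for Txnrd1 and -0.085 (MBV replicate 3) to 0.2449 for Nqo1. Planned comparisons with the combined group, and the contrasts balanced over library sets, were not run because its counts were not used here. With a mean of 38.3 reads per fluvastatin library and 40.7 per MBV library, depth limits Nqo1 most among the 10 genes.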

Other observations

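Other cell type lists were also counted in the comparisons with PBS. Of all genes tested, 9.36% rose and 10.2% fell with fluvastatin, and 12% rose and 14.1% fell with MBV. An unadjusted p under 0.05 was found for 32.5% and 37.8% of all genes. Of 8 red blood cell markers, 3 rose with fluvastatin and 3 with MBV, and their summed level was 16.15 to 18.8 CPM with PBS, 23.0 to 29.0 with fluvastatin and 22.6 to 27.6 with MBV. Of 10 ganglion cell markers, 3 rose with fluvastatin, and 1 rose and 1 fell with MBV. Nefh, a neurofilament gene and 1 of those that rose, went from 19.4 CPM with PBS to 40.7 with fluvastatin and 37.5 with MBV. Over the 10 ganglion cell markers, 9 log2 fold changes were above 0 and 1 below with fluvastatin. With MBV 6 were above and 4 below. Of 10 endothelial markers, 1 fell with fluvastatin and 2 rose with MBV. Of 10 microglia markers, 2 fell with fluvastatin and 1 with MBV. Of 9 neutrophil markers tested, 1 rose and 2 fell with fluvastatin, and 1 rose and 1 fell with MBV. Of 10 reactive glia genes 0 passed by edgeR in either comparison, with 1 in each at an unadjusted p under 0.05. Of 8 lens markers, 7 rose with MBV and 1 fell with fluvastatin. Of 12 monocyte and macrophage markers, 1 fell with fluvastatin and 0 passed with MBV, where 4 had an unadjusted p under 0.05. Of 10 pigment epithelium and melanocyte markers, 2 rose and 5 fell with fluvastatin, and 1 rose and 5 fell with MBV.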
